A study of Mus musculus with 2 samples.

Results

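The genes described here are the retinoid carriers Crabp1, Crabp2 and Stra6, the retinoic acid receptors Rara, Rarb and Rarg, and the retinoid X receptors Rxra, Rxrb and Rxrg. They were taken by gene identifier from the deposited tables, where all 9 were found among 43346 mouse gene rows. The RNA came from the facial prominence of B6NCrl mouse embryos at embryonic day 12.5, the tissue whose swellings fuse and grow into the midface and jaws. The series held 1 group and 2 libraries. Replicate 1 was made from 120 pooled embryos and replicate 2 from 88, with both sexes pooled, 10 ng of RNA of more than 200 bases in each library, and no treatment or genetic change named in the labels. With no second condition there was no group comparison to test, and values are given for each library and as means ± SD (n = 2). Each library is a pool of whole prominences, so a lower level in fewer cells and a lower level per cell cannot be told apart.

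Retinoic acid is made inside cells from retinol (vitamin A) and acts by binding nuclear receptors. STRA6 is a membrane receptor that takes up retinol from its carrier in blood, and the cellular retinoic acid binding proteins CRABP1 and CRABP2 hold retinoic acid in the cytoplasm, CRABP2 being known to pass it to the receptors. A retinoic acid receptor (RAR) pairs with a retinoid X receptor (RXR) on DNA at direct repeats of a short half-site, and recruits corepressors without ligand and coactivators with it. In the face, both a lack and an excess of retinoic acid are known to cause malformations.

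Both libraries held the markers of the labelled tissue, with 7 of 7 facial mesenchyme genes and 5 of 5 surface epithelium genes at 1 TPM (a level divided by gene length and scaled to one total per library) or more. Markers of other cell types were also present: neuron, skeletal muscle, eye and lens, forebrain and blood genes all reached 1 TPM, as did 5 of 7 genes of pigment cells and the pigmented layer of the retina. Expected counts summed to 27890681 in replicate 1 and 39969716 in replicate 2. The limit that a count of 0 allows, 3 counts, equalled 0.172 and 0.121 TPM in them at 1000 bases of effective length.

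All 9 genes were expressed at 1 TPM or more in both libraries, whereas 61.8% of the 21474 protein-coding genes reached that level. By mean TPM the order was Crabp1, Crabp2, Rarg, Rxrb, Rara, Rarb, Stra6, Rxra and Rxrg, from 476 TPM to 11.4 TPM, against a median of 5.24 TPM over protein-coding genes. In each of the 8 neighbouring pairs of that order, both libraries of the higher gene lay above both libraries of the lower one. The deposited interval of the TPM estimate, whose level is not stated, overlapped within a library for 1 of the 8 pairs, Rxra with Rxrg, and did so in both libraries.

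**Figure D1:**
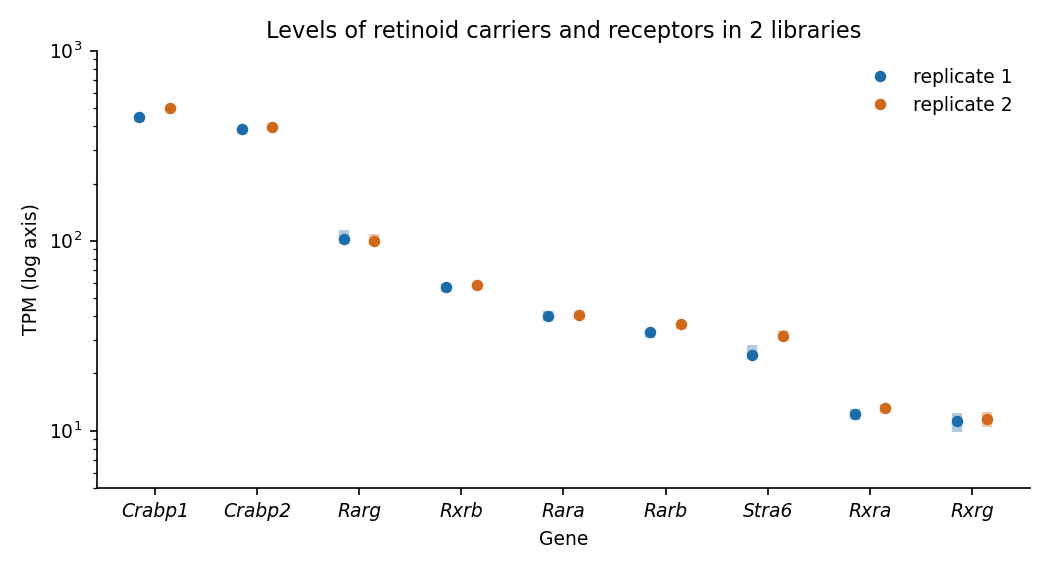
TPM (log axis) of the 9 genes in replicate 1 (blue) and replicate 2 (orange); points are the deposited TPM and shaded bars the deposited interval around its posterior mean, which can lie to one side of the point. The genes stand in order of mean TPM, with Crabp1 and Crabp2 between 387 and 502 TPM, Rarg near 100 TPM, and Rxra and Rxrg near 12 TPM.

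The cytoplasmic carriers were the most abundant members. Crabp1 (chr9:54764748-54773110, plus strand, GRCm38) had 449 TPM in replicate 1 and 502 TPM in replicate 2, from 5514 and 8751 counts, which placed it at rank 243 among protein-coding genes. Crabp2 (chr3:87948666-87953376, plus strand) had 387 and 397 TPM from 5611 and 8166 counts, at rank 318. Crabp1 was the higher of the 2 in both libraries, but by only 0.28 ± 0.09 on the log2 scale (1.21-fold), within the limit of 1 on the log2 scale (a factor of 2) used to call a ratio between genes. The coding sequences of the 2 genes were identical at 70.8% of aligned bases, and no 50-base window of either transcript set occurred in another gene, so reads could be assigned between them. Each gene was measured essentially as a single messenger: Crabp1 has 1 annotated transcript of 137 codons, and the leading Crabp2 transcript, of 138 codons, held 99.3% of its gene.

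Stra6 (chr9:58063788-58153996, plus strand), the uptake receptor, was expressed at a much lower level than the cytoplasmic carriers, with 24.9 TPM in replicate 1 and 31.4 TPM in replicate 2 from 1090 and 2020 counts. It had the largest difference between the libraries of the 9 genes, 0.34 on the log2 scale (1.26-fold higher in replicate 2). Its transcripts coding for 670 codons made up 20.8 and 27.6 TPM. One of them led in both libraries, with 49.9% and 53.6% of the gene, and another, which starts farther upstream, held 22.0% and 24.7%. Stra6 is known to be high in the pigmented layer of the retina, and the summed level of the 7 pigment genes was 32.2 and 59.0 TPM in the same order of libraries. Of those genes Pmel, Dct, Tyr and Tyrp1 were over 1.5-fold higher in replicate 2. Rlbp1 was not, at 2.43 and 2.88 TPM (1.19-fold). Mitf was too by TPM (1.15 and 1.87), but its posterior mean TPM ran the other way (29.2 and 21.7) with wide intervals, so its direction is not settled. Rpe65, which defines that layer when mature, had 0 counts in both, which allows up to 0.114 and 0.0805 TPM. The part of such cells in the Stra6 level was not tested.

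Rarg (chr15:102234938-102257517, minus strand) was the leading RAR, with 102 TPM in replicate 1 and 99.4 TPM in replicate 2 from 4537 and 6287 counts. Rara (chr11:98927818-98974942, plus strand) had 40.4 and 40.5 TPM from 1797 and 2536 counts. Rarb (chr14:16430839-16819156, minus strand) had 33.2 and 36.3 TPM from 1702 and 2643 counts. The libraries of the 3 genes did not overlap, and Rarg held 57.2 ± 1.14% of the summed RAR level, Rara 23.0 ± 0.04% and Rarb 19.8 ± 1.18%. Rarg exceeded Rara by 1.31 ± 0.03 on the log2 scale (2.48-fold), past the limit of 1 in both libraries. Rara exceeded Rarb by 0.22 ± 0.09 (1.16-fold), which did not pass it. Between RAR genes the coding sequences were identical at 72.9% to 77.9% of aligned bases, and no 50-base window was shared among the 9 genes. Windows shared with genes outside the 9 made up 0.23% for Rara, 0.30% for Rxrg and 0 for the other 7.

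The Rarb value carries a limit that the other members do not. Of the 3108 exon bases of Rarb-201, 1793 (57.7%) lie over exons of Top2b, which encodes a DNA topoisomerase and is transcribed from the opposite strand. Top2b was expressed at 102 and 107 TPM, about the level of Rarg and above Rarb. The sources used here do not say whether reads were counted by strand, and without strand the reads of the overlap cannot be told apart. None of the other 8 genes had exons overlapping another gene. Rarb was also represented in the tables by only 1 of the 7 transcripts that GENCODE M21 lists, so its transcripts could not be compared.

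Rarb is itself a classical target of retinoic acid, and its promoter is shown because it carries the known response element. The search covered promoters from 250 bases before to 50 bases after each RefSeq start (GRCm38.p6) for the elements named DR1, DR2 and DR5, direct repeats of the receptor half-site with spacers of 1, 2 or 5 bases, on either strand. In the following stretches, printed 5′ to 3′ from the minus strand, the half-sites of the DR5 match are in capitals.
Rarb, chr14:16575507-16575535: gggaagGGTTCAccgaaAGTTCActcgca
Cyp26a1, chr19:37697770-37697798: caaattAGTTCAcccaaAGTTCAtcttta
The Rarb match lies on the gene's own strand, 37 to 53 bases upstream of its RefSeq start. The GENCODE M21 start of Rarb-201 lies 67 bases farther upstream than the RefSeq start, so in that annotation the match falls inside the first exon. The match in Cyp26a1, which encodes an enzyme that degrades retinoic acid, lies 16 to 32 bases upstream of the start and on the opposite strand to the gene.

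A DR5 match was rare, occurring in 32 of 32851 promoters (0.0974%). Among the 9 genes, 8 had promoters in the table, 18 promoters in all, and only the Rarb one held it. The Rara promoters searched did not cover the starts of the transcripts Rara-203 and Rara-202. These held on average 25.5% and 18.6% of the Rara level, so the search says nothing about those starts. Of the 20 known target genes listed for this work, 12 had a promoter in the table, and Rarb and Cyp26a1 were the ones with a DR5 match. DR1 matches occurred in 0.222% of promoters and DR2 matches in 0.268%, and none was in a member's promoter that was searched. Crabp2 was the member with no promoter in the table, so it was not searched for any of the elements. These are matches of letters in a short window and do not show binding.

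Rxrb (chr17:34031812-34038399, plus strand) was the leading RXR, at 57.1 TPM in replicate 1 and 58.5 TPM in replicate 2 from 2177 and 3132 counts. Rxra (chr2:27676440-27762957, plus strand) had 12.2 and 13.1 TPM from 1023 and 1563 counts. Rxrg (chr1:167598384-167639623, plus strand) had 11.3 and 11.5 TPM from 362 and 542 counts, the fewest reads of the 9 genes. Rxrb held 70.6 ± 0.34% of the summed RXR level, Rxra 15.4 ± 0.46% and Rxrg 13.9 ± 0.12%. The log2 ratio of Rxra to Rxrb was -2.19 ± 0.05 (4.57-fold lower), past the limit in both libraries. The 1.11-fold difference between Rxra and Rxrg, 0.15 ± 0.06 on the log2 scale, was not called, and their deposited intervals overlapped.

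Summed by family, the RAR genes had 175 TPM in replicate 1 and 176 TPM in replicate 2, and the RXR genes had 80.5 and 83.2 TPM. The RAR sum exceeded the RXR sum by 1.10 ± 0.03 on the log2 scale (2.15-fold), past the limit. With Rarb, whose value carries the Top2b limit, left out of the sum (an alternative chosen after seeing the data), the value was 0.78 and did not pass; a sum over fewer genes is lower by construction. Crabp1 and Crabp2 together had 836 and 899 TPM, and exceeded the RAR sum by 2.30 ± 0.07 on the log2 scale (4.93-fold). Of the 8 ratios examined, 4 passed the limit. With counts not divided by length, Crabp over RAR was 0.52 and did not pass, and Rxra over Rxrg was 1.51 and did. These are ratios of RNA levels, each divided by effective length, and not of protein.

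Each of the 6 receptor genes had the same leading transcript in both libraries. For Rarb, with only 1 transcript in the tables, this was fixed in advance. The share of all genes that keep their leading transcript was not computed. Of the 34 receptor transcripts in the tables, 11 were listed at 0 in both. Estimates for single transcripts carry more error than those for genes, since many reads fit several transcripts of a gene.

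**Figure D2:**
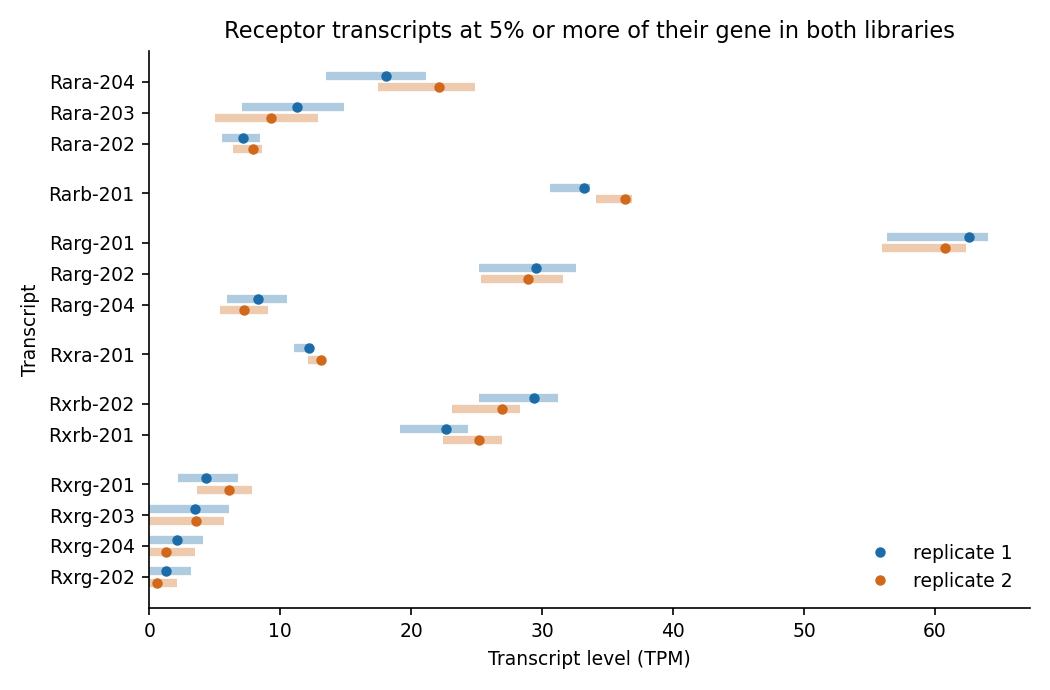
TPM of the receptor transcripts that held 5% or more of their gene in both libraries, in replicate 1 (blue) and replicate 2 (orange); points are the deposited TPM and shaded bars the deposited interval. Rarg-201 lies near 61 TPM and Rarg-202 near 29 TPM with intervals apart, Rxrb-202 and Rxrb-201 lie close together, and the intervals of 3 of the 4 Rxrg transcripts reach almost to 0.

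Rarg was expressed from both of its main start sites. Rarg-201, of 458 codons, had 62.6 and 60.8 TPM, or 61.6% and 61.2% of the gene. Rarg-202, of 447 codons, starts 11017 bases downstream and had 29.5 and 28.9 TPM, or 29.1% in each library. The libraries agreed closely on this split: Rarg-201 exceeded Rarg-202 by 1.08 ± 0.01 on the log2 scale (2.11-fold). Both transcripts share 397 codons and differ in the first part of the coding sequence, which encodes the N-terminal region of the receptor ahead of the DNA-binding domain. The parts that differ are printed to show that the 2 transcripts do not share their coding start, with the start codon in capitals.
Rarg-201, chr15:102252420-102252602, minus strand: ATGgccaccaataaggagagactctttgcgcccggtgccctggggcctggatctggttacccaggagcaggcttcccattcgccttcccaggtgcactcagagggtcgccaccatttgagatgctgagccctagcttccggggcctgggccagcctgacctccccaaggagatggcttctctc
Rarg-202, chr15:102246061-102246210, minus strand: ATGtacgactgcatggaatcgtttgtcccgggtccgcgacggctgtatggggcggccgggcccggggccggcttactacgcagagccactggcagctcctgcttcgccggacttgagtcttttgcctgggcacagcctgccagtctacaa
The first stretch covers 61 codons and the second 50 codons. Another transcript, Rarg-204, is a fragment with an incomplete coding sequence, and it held 8.17% and 7.27%.

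Rara showed the same arrangement with a stronger bias to the upstream starts. Its transcripts with 462 codons (Rara-201, Rara-203, Rara-204 and Rara-207) together had 33.2 and 32.6 TPM, or 81.4 ± 1.28% of the gene. Rara-202, of 459 codons, starts at an internal site and had 7.13 and 7.89 TPM, or 17.7% and 19.5%. The 462-codon group exceeded Rara-202 by 2.13 ± 0.12 on the log2 scale (4.39-fold). Within the 462-codon group the split moved between libraries. Rara-204 had 18.1 and 22.1 TPM (44.7% and 54.5%), Rara-203 had 11.3 and 9.30 TPM (28.0% and 23.0%), and Rara-207 had 3.41 and 0.31 TPM. Their sum was steadier than any of these parts.

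**Figure D3:**
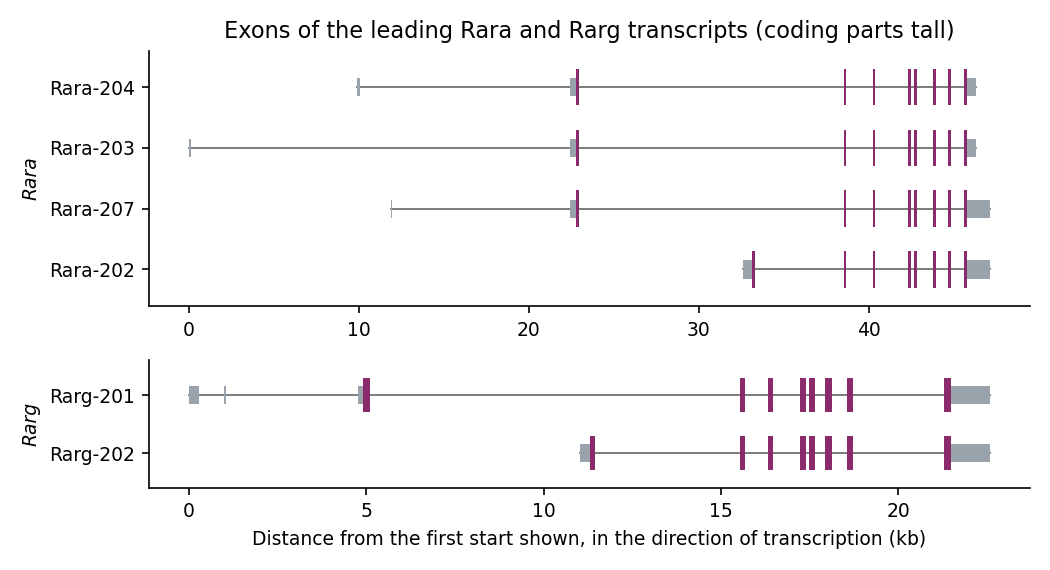
Exons (grey) and coding parts (tall, purple) of the leading Rara and Rarg transcripts, in kb from the first start shown and in the direction of transcription. Each gene has an upstream and a downstream first coding exon joined to the same later exons, with Rarg-202 starting 11017 bases after Rarg-201.

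Rxrb was divided almost evenly between coding forms of unequal length. Rxrb-202, of 410 codons, had 29.4 TPM in replicate 1 and 26.9 TPM in replicate 2 (51.5% and 46.0%), and Rxrb-201, of 524 codons, had 22.7 and 25.2 TPM (39.7% and 43.0%). Rxrb-202 was the higher in both libraries, but the log2 ratio of Rxrb-201 to Rxrb-202, -0.24 ± 0.20, was close to its spread. The longer form begins 110 codons earlier. It also holds 12 extra bases, the length of 4 codons, at chr17:34036861-34036872, from an earlier start of one internal exon. The extra bases are shown in capitals and do not begin at a codon boundary.
Rxrb-201, plus strand, spliced: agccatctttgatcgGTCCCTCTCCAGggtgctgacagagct
Another 6 Rxrb transcripts that keep an intron summed to 8.76% and 11.0% of the gene. Rxrb-203 (414 codons) and Rxrb-207 (520 codons) were listed at 0 TPM in both libraries. Their lengths in the tables, 1743 and 1547 bases, were shorter than the 2502 and 2577 bases in GENCODE M21. The split between coding forms therefore rests on incomplete models of these transcripts.

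Rxra was assigned to Rxra-201 (467 codons) alone, and its other 5 transcripts were listed at 0 in both libraries. Rxrg-201, Rxrg-203 and Rxrg-204 encode the same 463 codons and together had 9.99 and 10.9 TPM (88.4% and 94.7%). The shorter Rxrg-202 (340 codons), which starts inside the gene, had 1.31 and 0.61 TPM (11.6% and 5.29%). The deposited intervals of Rxrg-202, Rxrg-203 and Rxrg-204 reached almost to 0, so their separate levels were not resolved at this depth.

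The other genes of the pathway were read from lists, with genes from the top and the bottom of each named. Beside the counts of list genes at 1 TPM in both libraries, the share over all protein-coding genes was 61.8%. Of 9 other retinoid carriers, 5 reached 1 TPM in both libraries. Fabp5, a fatty acid binding protein that also carries retinoic acid, had 341 TPM in replicate 1 and 305 TPM in replicate 2. Crabp2 exceeded Fabp5 by 0.28 ± 0.14 on the log2 scale (1.21-fold), which did not pass the limit. Ttr, which carries the retinol complex in blood, had 5.67 and 5.26 TPM. Stra6l, a relative of Stra6, was near the floor at 0.10 and 0.13 TPM, and Rbp3 at 0.04 and 0.07 TPM.

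Synthesis genes reached 1 TPM in 7 of 12 cases. The highest was Adh5 (187 and 188 TPM), a broadly expressed alcohol dehydrogenase. Aldh1a2, which makes retinoic acid from retinal, had 82.7 and 76.4 TPM, and Dhrs3, which returns retinal to retinol, had 42.9 and 46.6 TPM. Aldh1a1, another retinal dehydrogenase known in the developing eye, was the only one of the list with a mean of 1 TPM or more to differ over 1.5-fold, at 8.03 TPM in replicate 1 and 25.1 TPM in replicate 2. The summed level of the 5 eye and lens genes moved the same way, from 144 to 311 TPM, and its part in the Aldh1a1 difference was not tested. Lrat, which stores retinol as esters, had 0.08 and 0.05 TPM, and Dhrs9 had 0 counts in both libraries, which allows up to 0.0411 and 0.0289 TPM.

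Of the 3 enzymes that degrade retinoic acid, 2 reached 1 TPM. Cyp26b1 had 17.7 and 17.5 TPM and Cyp26a1 10.5 and 8.63 TPM, whereas Cyp26c1 had 0.90 and 0.83 TPM. All 3 were below Aldh1a2 in both libraries.

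The cofactors were all expressed. The 9 corepressor genes ranged from Tbl1xr1 (18.7 and 18.9 TPM) and Zfp703 (21.5 and 22.5 TPM) to Ncor1, a direct receptor corepressor, at 165 and 154 TPM. Hdac3, the deacetylase of that complex, had 135 and 134 TPM, and Gps2, another subunit, 70.2 and 75.7 TPM. The 9 coactivator genes matched, of 10 listed (Prmt1 was not matched), were led by the methyltransferase Carm1 (70.1 and 63.8 TPM), the Mediator subunit Med1 (59.2 and 66.4 TPM) and the acetyltransferase Crebbp (36.3 and 36.5 TPM). Ncoa1 (7.38 and 6.06 TPM) and Kat2b (1.87 and 2.25 TPM) were the lowest. The median of the corepressor list was 39.7 TPM and that of the coactivator list 23.2 TPM.

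RXR also pairs with other nuclear receptors, and 7 of 13 of these reached 1 TPM in both libraries. Nr1h2, a liver X receptor, had 55.2 and 55.1 TPM, close to Rxrb. Thra, a thyroid hormone receptor, had 28.4 and 24.0 TPM, and Nr4a2 had 6.22 and 6.92 TPM. Ppard was over 1.5-fold lower in replicate 2 by TPM (2.61 and 1.67 TPM), but its counts were 113 and 118 and its deposited intervals overlapped. Nr1i2 had 0 and 1 counts and Nr1h4 0 counts in both libraries. The median of this list, 1.31 TPM, lay below each of the 9 members.

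Known retinoic acid targets reached 1 TPM in 15 of 20 cases, beside 61.8% of all protein-coding genes. The list holds 3 of the members, Crabp2, Rarb and Stra6. The highest were Crabp2 and the homeobox gene Meis1 (90.4 and 93.8 TPM). Rarres1 was over 1.5-fold higher in replicate 2 by TPM (0.79 and 1.32 TPM), from only 17 and 40 counts and with overlapping deposited intervals. Stra8, which marks entry into meiosis, and Cdx1, a gene of the posterior embryo, had 0 counts in both libraries. The median of the list was 15.5 TPM. A level in 1 condition does not show which of these genes responded to retinoic acid.

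**Figure D4:**
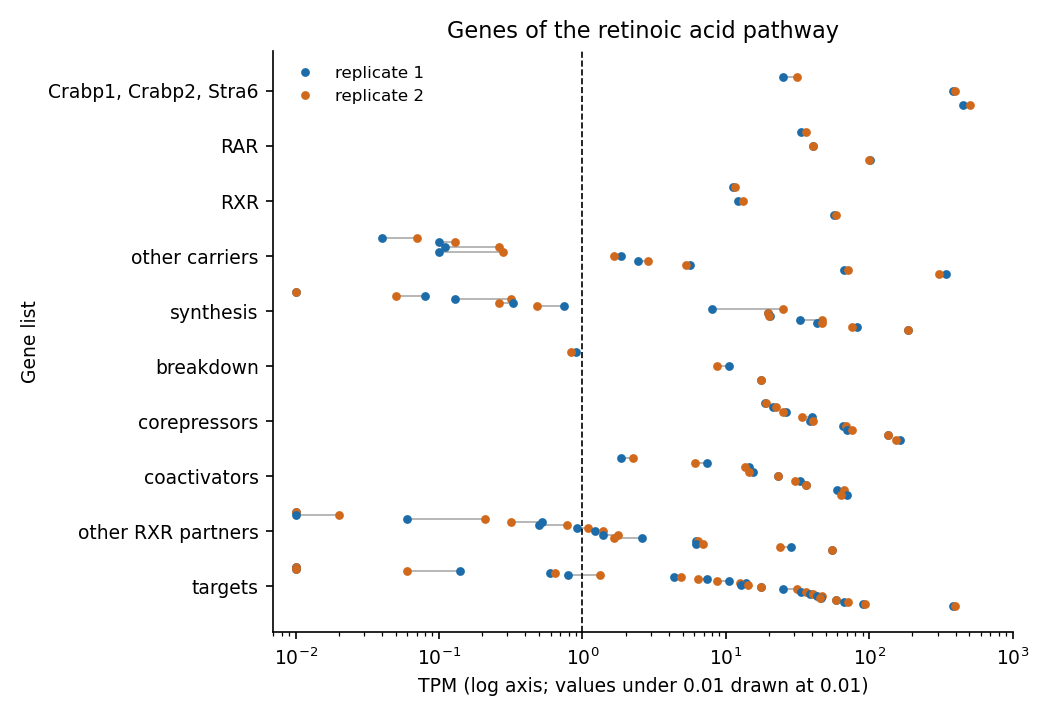
TPM (log axis) of each gene in replicate 1 (blue) and replicate 2 (orange), joined by a grey line, for the 9 members and 7 pathway lists; the dashed line is 1 TPM, and values under 0.01 are drawn at 0.01. The members, corepressors and coactivators all lie right of the line, and the widest gap among genes above 1 TPM is that of Aldh1a1 in the synthesis list.

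The levels of the 9 genes were close between the 2 libraries. None differed by over 1.5-fold. Of the 13490 protein-coding genes with a mean of 1 TPM or more 3.51% did, but only 0.571% of the 9111 with a mean of 10 TPM or more, the range in which all 9 members lie, so the count of 0 is near the background. The median size of the log2 difference was 0.04 over the 9 genes and 0.07 over those 9111 genes. Rara (0.00), Rxrg (0.03), Rarg (-0.03), Rxrb (0.04) and Crabp2 (0.04) were the nearest to 0, followed by Rxra (0.11), Rarb (0.13), Crabp1 (0.16) and Stra6 (0.34). By TPM 8 of the 9 lay above the median of protein-coding genes, which was 0.00, and 8 were higher in replicate 2. With counts scaled by TMM or RLE factors, both numbers were 7. Scaling by the spike-ins moved that median to -0.13, and 7 of the 9 lay above it. Only 2 of the 9 were higher in replicate 2 by that scaling, so the direction depended on the scaling. The 2 pools also differed in neuron genes, which were lower in replicate 2 for 5 of 5 (summed level 428 and 323 TPM), and in muscle genes, which were higher for 4 of 4 (349 and 413 TPM). The part of these tissues in the members' differences was not tested.

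**Figure D5:**
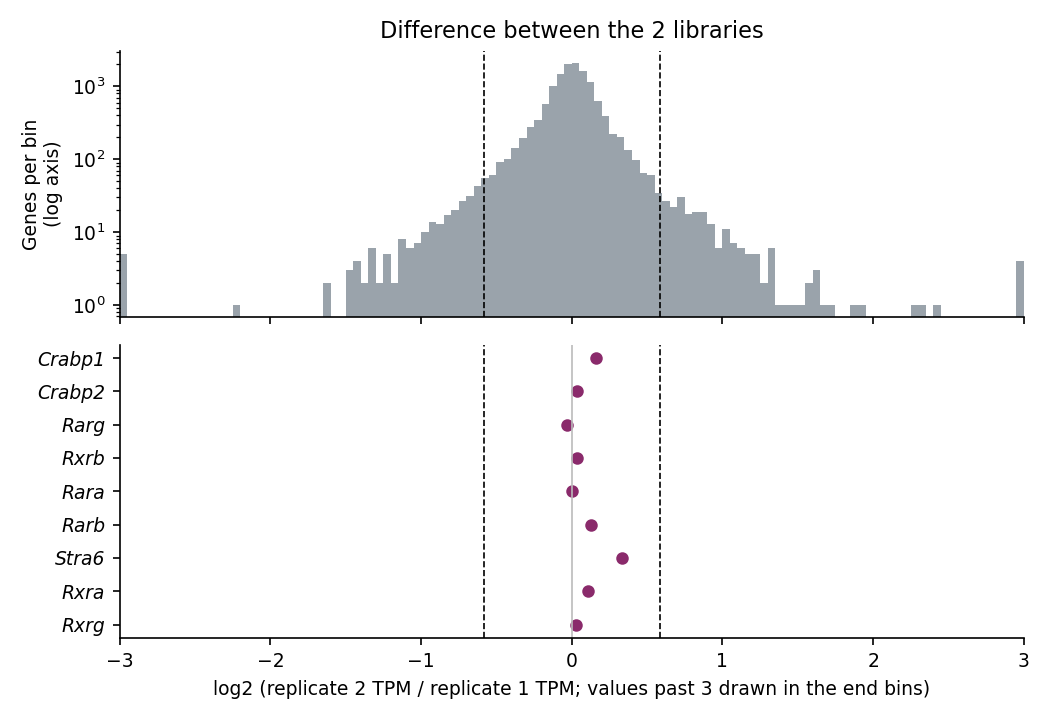
Upper panel, number of protein-coding genes (log axis) with a mean of 1 TPM or more, by log2 of the TPM in replicate 2 over replicate 1, with values past 3 in the end bins; lower panel, the same value for the 9 members. Dashed lines mark the 1.5-fold limit, and all 9 members lie between them, with Stra6 the farthest from 0 at 0.34.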

How the data were processed

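Total RNA-seq tables of 2 libraries, 1 per pool of embryos, were used as deposited. The expected counts, per the file headers, are estimated reads per gene or transcript, not normalized. The deposited TPM values divide counts by effective length and sum to the same total in each library over all rows, spike-ins and tRNA entries included. The deposited FPKM values and the deposited posterior mean TPM served as alternatives. Transcript shares are the deposited isoform percent. Reads were aligned to mm10 with GENCODE M4, per the deposited notes. The strand setting, aligner and quantifier were not given in the sources used here.

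Names, coordinates and coding sequences came from GENCODE M21 (GRCm38), which held 42462 of the 43346 mouse identifiers, and promoters from RefSeq (GRCm38.p6). Of the 51 member transcripts, 46 had the same length in M21 as in the tables. Ratios were taken as log2 within each library and called when the mean passed 1 or -1 with the same sign in both. No p-value was computed, since 2 libraries of 1 group allow no test between groups. Sequence identity came from global alignments in Biopython 1.88. Expected counts, rounded to whole numbers, gave TMM factors in edgeR 4.0.16 and RLE factors in DESeq2 1.42.0 under R 4.3.3, and were used for scaling only. Other steps used Python 3.11.15, numpy 2.4.6, pandas 2.3.3 and matplotlib 3.10.9.

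The named genes were all 9 members, every receptor transcript at 5% or more in both libraries, and for each pathway list the 3 highest, the 2 lowest and any gene over 1.5-fold apart with a mean of 1 TPM or more; Stra6 transcripts, marker genes and Top2b were added after their values were seen. Some results that this rule would name are not reported here. The likeness of expression patterns was not computed, since the series has 1 group. The members and lists were chosen with earlier results of these data known. Limits from 3 counts cover counting error only, as the labels name no molecular identifiers to count molecules by. Alternatives covered other units, minimums, fold limits, pseudocounts, scalings and each library alone.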

Additional observations from a re-analysis of the deposited data

How the results depend on the processing

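The number of members at 1 TPM (9), the number over the fold limit between libraries (0) and the number of receptors with a constant leading transcript (6) were the same under every alternative run for them. The last number includes Rarb, whose only listed transcript could not change. Some other alternatives could not change these numbers either. A fold limit of 2 cannot raise a count of 0, and minimums for background genes leave the members untouched. Minimums of 0.5 and 5 TPM lie below the lowest member value, 11.3 TPM. Grouping transcripts by start site put Rxrb-201 with Rxrb-202, and Rxrg-201 with Rxrg-203 and Rxrg-204. Without one library or the other, the ratios ranged from 0.21 to 0.34 for Crabp1 over Crabp2, 1.29 to 1.33 for Rarg over Rara, 0.16 to 0.28 for Rara over Rarb, -2.23 to -2.16 for Rxra over Rxrb, 0.11 to 0.19 for Rxra over Rxrg, 1.08 to 1.12 for RAR over RXR, 2.25 to 2.35 for Crabp over RAR and 0.18 to 0.38 for Crabp2 over Fabp5 (log2). With counts not divided by length, which measure reads and not molecules, the log2 ratios were 0.037 for Crabp1 over Crabp2, 0.0094 for Rara over Rarb, -1.05 for Rxra over Rxrb, 1.51 for Rxra over Rxrg, 1.15 for RAR over RXR, 0.52 for Crabp over RAR and 0.11 for Crabp2 over Fabp5. This setting ended the call for Crabp over RAR and gave one for Rxra over Rxrg. With the posterior mean TPM Rarg over Rara was 1.34, and with a pseudocount of 1 TPM Rxra over Rxrb was -2.11. Leaving Rarb out, chosen after seeing the data, gave 0.78 for RAR over RXR and 2.62 for Crabp over RAR. The share of protein-coding genes over the fold limit was 0.838% at a limit of 2, 17.0% with no minimum level and 0.571% with a minimum of 10 TPM. No paired analysis was possible because the series has 1 group. Single transcripts of Rara and Rxrg had intervals that reached almost to 0.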
